A study of Rattus norvegicus with 10 samples.

Results

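The 5 basal arrays of the series, out of 10 in all, hold needle biopsies of mammary tumours taken before any treatment. They were chosen by that label alone, and all values below come from these 5 arrays. The tumours arose in female Sprague-Dawley rats, an outbred stock, that had swallowed the carcinogen DMBA (7,12-dimethylbenz(a)anthracene) once at 100 mg/kg. Each Trucut biopsy, a core of 0.7 cm by 2.5 mm, was cut at 12 weeks of age from a tumour that had reached 2 cm3, and the tumours were of Bloom-Richardson grade II. The study went on to compare these biopsies with later samples of the same tumours, which are not compared here. The biopsies carry the tumour identifiers 66D2, 67D3, 45D3, 49I1 and 51I1, and values are listed in that order throughout. The labels do not say whether any of the tumours shared a rat.

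Mammary tumours induced by DMBA are classically ductal growths that keep luminal and myoepithelial cells side by side, depend on oestrogen and prolactin, and can secrete milk proteins. A core also holds stroma, vessels and immune cells, so an array reads their mixed RNA. In such bulk tissue fewer cells of a type and less RNA per cell cannot be told apart. Each tumour gave 1 array, so a difference between biopsies holds the tumour, the piece that was sampled and the array together. The number of arrays limits the precision, and with a single group there is no test.

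Signals are normalised log2 intensities, so a step of 1 is a doubling of signal. After keeping 1 probe set per gene, the brightest, 14217 genes were measured. The median over all probe sets lay between 5.99 and 6.08 in the 5 arrays. Hexokinase, a control read near both ends of its transcript, differed in signal between its 3′ and 5′ probe sets, a gap that widens when RNA is shortened before labelling. That 3′ minus 5′ gap was 0.97, 2.03, 2.36, 1.19 and 1.29 in 66D2, 67D3, 45D3, 49I1 and 51I1. The controls for beta-actin (0.74, 1.04, 1.25, 0.77 and 0.89) and GAPDH (0.12, 0.27, 0.48, 0.10 and 0.17) had the same 2 highest biopsies, 67D3 and 45D3. Across the 12567 genes with a biopsy above the dim cutoff described below, which are not independent replicates, the biopsies correlated with r from 0.928 (66D2 with 45D3) to 0.976 (67D3 with 45D3). The deviations of genes from their own means had an SD of 0.48 in 66D2 and of 0.33 to 0.41 in the other 4.

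Of all genes, 5461 (38.4%) had a mean above BioB, the faintest spiked-in bacterial transcript, which read 8.20 on average and 7.94 to 8.60 by array. At the dim end, a cutoff of 4.16 was taken from 29 smell, pheromone and taste receptor genes as the 95th percentile of their means. By that measure 2099 genes (14.8%) had a mean at or below the cutoff, and 1650 (11.6%) stayed at or below it in all 5 biopsies. A signal there is a bound and does not show that a transcript is absent. Signals of different probe sets also depend on how well each binds, so ranks between genes describe brightness and not amounts of RNA.

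**Figure D1:**
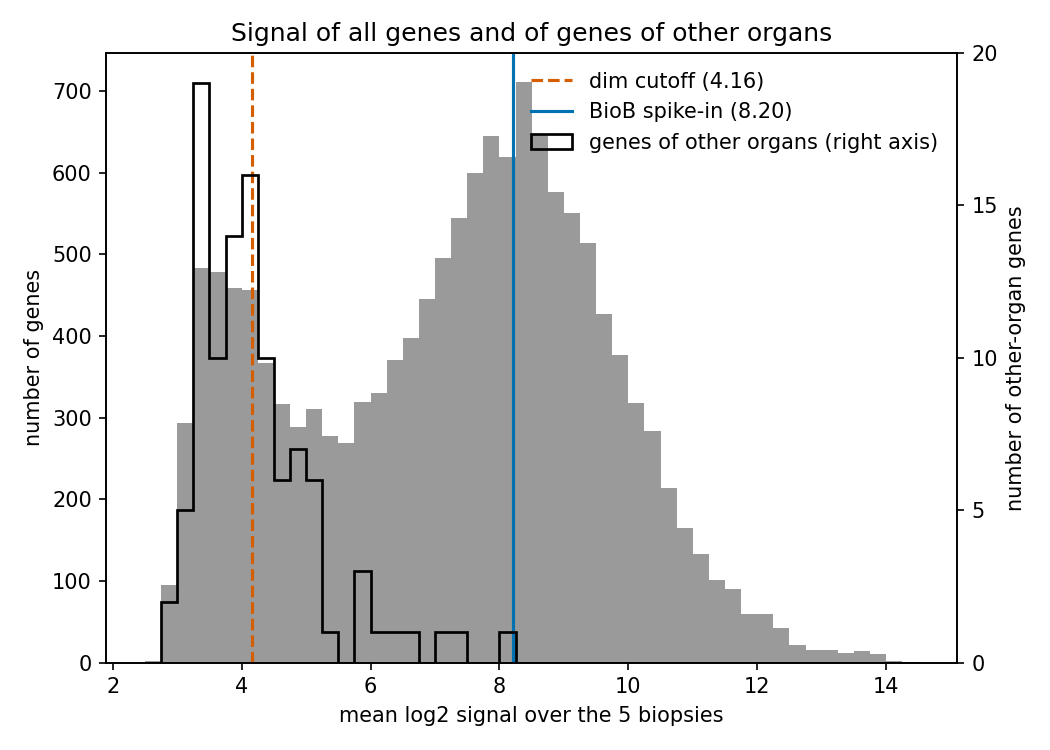
Number of genes by mean log2 signal over the 5 biopsies (grey, left axis, 14217 genes), with the dim cutoff at 4.16 (dashed) and BioB at 8.20 (solid), and the 105 genes of other organs in outline on the right axis. The genes of other organs gather around the cutoff, and none has a mean above BioB.

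The brightest signals belonged to the machinery of translation. Of the 30 brightest genes, 22 encode ribosomal proteins and 2, COX1 and COX2, are mitochondrial genes for subunits of cytochrome oxidase. The brightest of all was Eef1a1, the elongation factor that brings aminoacyl-tRNA to the ribosome, at 14.09 ± 0.05 (SD, n = 5). The other 5 were Actg1, a cytoplasmic actin (13.85 ± 0.05), B2m, the light chain of MHC class I (13.80 ± 0.12), Apoe, a lipid carrier (13.52 ± 0.10), Tmsb4x, an actin-binding peptide (13.48 ± 0.24), and Anxa1, a phospholipid-binding protein (13.42 ± 0.20). These signals barely moved from tumour to tumour, with an SD under 0.1 in 26 of the 30. Choosing genes by a high mean leaves little room for a large SD.

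Among the 100 brightest genes 38 encode ribosomal proteins, and COX1 and COX2 were the 2 from the mitochondrial genome. In this group 0 had an SD over 1, which 3.49% of the genes with a biopsy above the cutoff had. That 0 is partly set by the choice of a high mean, near the top of the scale. Lalba, a milk gene described below with an SD of 1.57, ranked 107 by mean. The tumour epithelium showed in this group through Krt19, a luminal keratin (13.14 ± 0.67), Epcam, an epithelial adhesion molecule (12.85 ± 0.13), Krt18 (12.45 ± 0.32) and Areg, an EGF receptor ligand that oestrogen induces in the mammary gland (12.62 ± 0.45). Secreted products were there too, with Lcn2, an iron-scavenging lipocalin (13.15 ± 0.55), Mgp, an inhibitor of calcification (13.29 ± 0.56), and Clca1, a secreted regulator of chloride channels (13.42 ± 0.33). Hbb, the beta chain of haemoglobin, read 12.82, 11.88, 13.22, 10.91 and 13.15. Alas2, which starts haem synthesis in red cells, ran in nearly the same order (7.52, 5.88, 8.0, 5.65 and 8.24). Both were dimmest in 49I1 and next in 67D3.

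The steadiest genes above BioB were Rpl7a, a ribosomal protein (13.91 ± 0.014), Tspan4, a tetraspanin (9.25 ± 0.018), and Fiz1, a zinc finger protein (8.60 ± 0.019). Cul1, the scaffold of SCF ubiquitin ligases (10.69 ± 0.022), Trim8 (8.47 ± 0.024), Fam114a2 (9.80 ± 0.025), Atg12, a conjugation protein of autophagy (9.50 ± 0.025), Rpl19 (13.66 ± 0.027), Micos13, of the mitochondrial inner membrane (11.02 ± 0.027), and Rpl27a (13.91 ± 0.027) completed the 10 lowest SDs. They span bright and middling signals.

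Genes that mark other organs were dim. Of 105 such genes measured, from liver, pancreas, eye, testis, brain, pituitary and placenta, kidney, gut, heart and lung, and thyroid and adrenal, 60 had a mean at or below the cutoff and 45 stayed there in all biopsies. Their median was 4.09, and 0 lay above BioB. The highest mean was that of Mbp, the myelin basic protein, at 8.07 ± 0.40. Among the 60 with a biopsy above the cutoff, 5 had an SD over 1, where 3.49% of all genes with such a biopsy did. Serpina1, the liver's antiprotease, read 6.24, 6.78, 5.77, 7.94 and 10.74, above BioB in 51I1 alone. Ctrb1, a pancreatic chymotrypsinogen, read 7.83, 3.61, 3.65, 3.50 and 3.58, which is above the cutoff in 66D2 alone. Fgg, a fibrinogen chain (7.24, 4.23, 6.38, 6.74 and 7.92), was lowest in 67D3.

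Among tissues that a core might touch, skeletal muscle gave mostly dim signals. Of 18 muscle genes 1 had a mean above BioB, and 7 were at or below the cutoff in all 5 biopsies, where 11.6% of all genes lay. They were the fast myosins Myh2 and Myh4 and the troponins Tnnt3, Tnnc2 and Tnnt1, with Myl1 and Casq1. Myh1, a fast myosin whose symbol sits on several probe sets, read 10.49 ± 0.34 and is the exception. Acta1, skeletal muscle actin, read 5.61, 6.61, 9.35, 5.60 and 3.76 and stood out in 45D3. Atp2a1, the calcium pump of fast fibres, was between 5.68 and 6.82, and Tnni2, a fast troponin, read 6.80 ± 0.14. The skin and squamous list had 4 of 13 members at or below the cutoff throughout, namely Krt1, Krt13, Sprr3 and Ivl. Lgals7 (11.39 ± 0.39) and Sfn (10.45 ± 0.59), which stratified and glandular epithelium share, were the 2 of that list above BioB, and Calml3, a calmodulin-like protein of epithelia, read 6.78 ± 0.70.

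Luminal epithelium was present in every core, with bright markers. Of its 20 markers 18 had a mean above BioB and 1 had an SD over 1, where 38.4% and 3.49% of genes did. The list medians lay within 0.30 of each other, while single members differed by more and in opposite directions. The median SD of the list was 0.30, above the median of 0.24 over the genes with a biopsy above the cutoff. Keratins Krt8 (12.24 ± 0.32) and Krt18 (12.45 ± 0.32) and Gata3, a transcription factor of luminal identity (11.18 ± 0.31), also lay above that median. Cdh1, E-cadherin (11.31 ± 0.20), and Spint2, a protease inhibitor of epithelia (12.01 ± 0.07), varied less. Krt7 (8.55, 10.34, 9.65, 10.31 and 10.41) and Krt19 (12.22, 13.85, 13.11, 12.81 and 13.73), also luminal keratins, were lowest in 66D2. The most variable was Elf5, the transcription factor that drives milk-secreting alveolar cells, at 10.75, 7.73, 9.27, 7.20 and 6.52. It was brightest in 66D2 and next in 45D3. Foxa1, the pioneer factor of the oestrogen receptor, read 3.90 ± 0.22 and was the 1 member with a mean below the cutoff.

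The receptors of the hormones on which such tumours depend gave bright and dim signals. Prlr, the prolactin receptor, read 12.25 ± 0.55, and Xbp1, a factor of secretory cells, 12.33 ± 0.16. Esr1, oestrogen receptor alpha, read 4.80, 4.75, 4.08, 4.86 and 4.41, close to the cutoff, on its 1 probe set. Of the genes oestrogen is known to induce, Pgr, the progesterone receptor, read 6.94, 9.13, 7.73, 7.95 and 8.55. Greb1 followed the same order, at 4.16, 8.58, 5.71, 5.88 and 7.30. Both were lowest in 66D2 and highest in 67D3 and 51I1, while the dim Esr1 signal did not run in that order. A second Greb1 probe set stayed between 4.66 and 5.39. Igfbp5, which binds insulin-like growth factors, was bright but uneven (12.62, 11.42, 12.40, 10.72 and 10.47), lower in 49I1 and 51I1. Tnfsf11, the RANK ligand that progesterone induces, lay at or below the cutoff in every biopsy.

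Basal and myoepithelial genes were bright but less even, with 11 of 14 members above BioB (38.4% of all genes) and 5 with an SD over 1 (3.49% of genes). Krt5 (12.15, 12.40, 12.20, 11.11 and 12.54) and Krt14 (11.88, 11.99, 12.01, 10.54 and 12.68), keratins of the basal layer, were lowest in 49I1, as was Krt15 (11.43, 11.33, 12.30, 8.99 and 11.92). The contractile genes split the biopsies otherwise. Actg2, smooth muscle gamma-actin, read 10.79, 11.24, 11.57, 7.93 and 7.49, and its lower 2 biopsies, 49I1 and 51I1, lay at least 2.86 below the other 3. Myh11, smooth muscle myosin (9.15, 11.11, 11.64, 8.95 and 7.57), and Cnn1, calponin (9.65, 11.17, 11.24, 9.37 and 8.23), were highest in 67D3 and 45D3, as was Tagln, transgelin (12.11, 12.86, 12.96, 11.61 and 12.06). The list medians spanned 1.35, and 0.37 without 67D3 and 45D3, the biopsies with the widest 3′ minus 5′ gaps of the controls (hexokinase 2.03 and 2.36), whose part in this result was not tested.

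**Figure D2:**
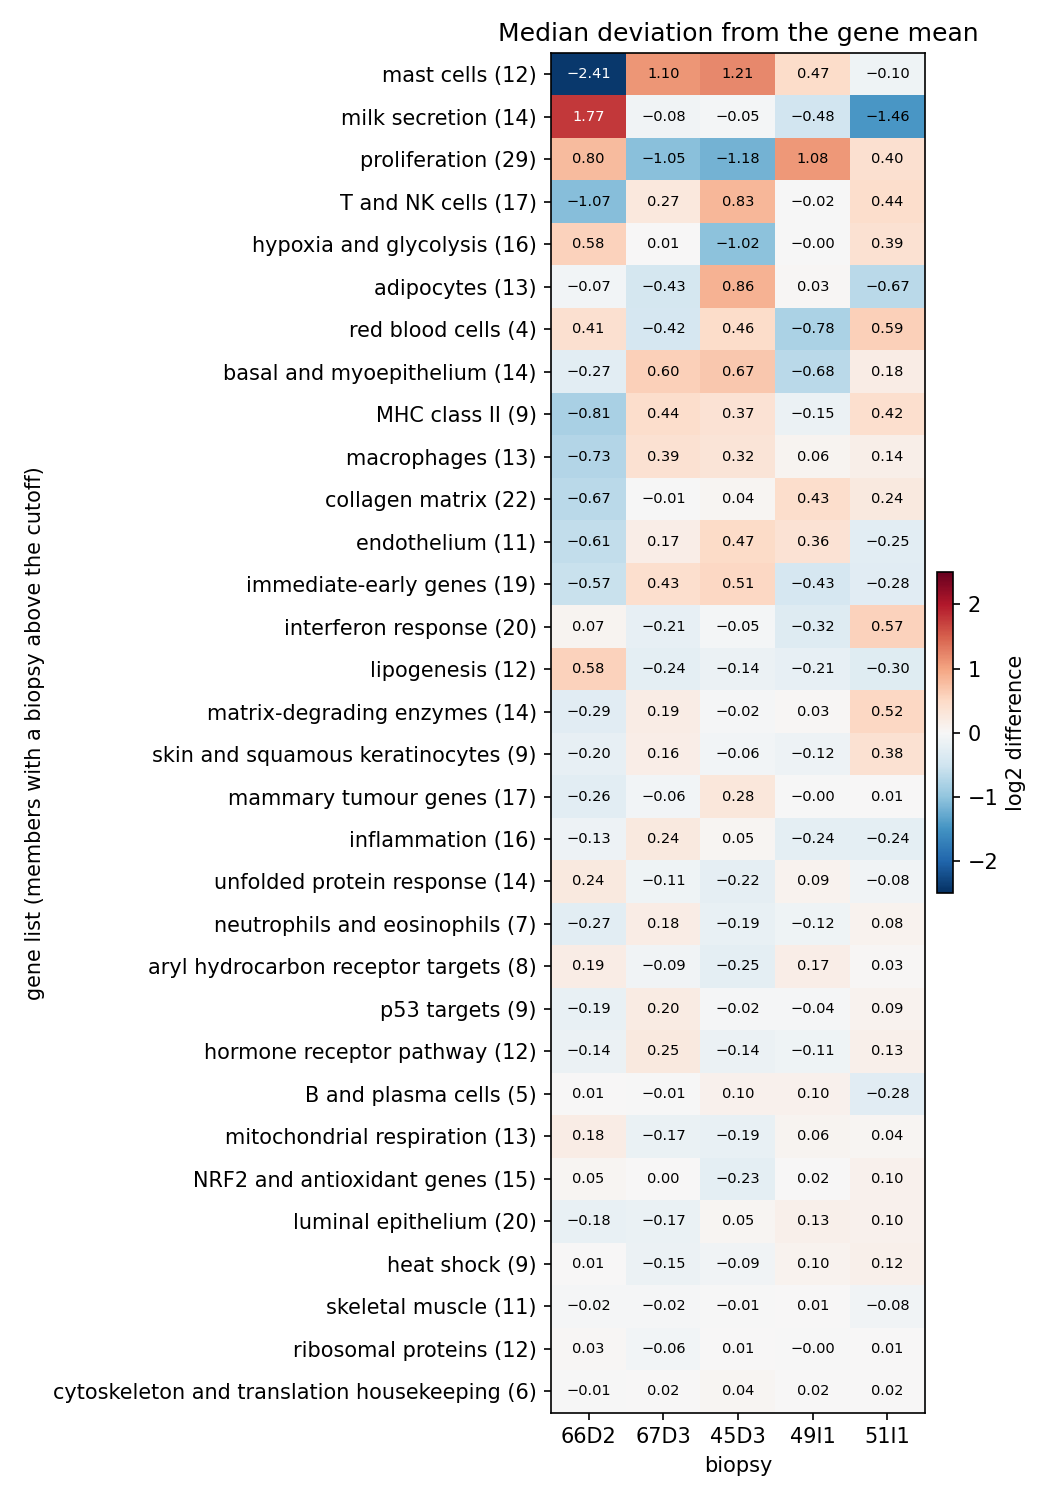
For 32 gene lists (rows, number of members with a biopsy above the cutoff in brackets), the median over members of the log2 signal minus the gene's own mean, in each biopsy. Mast cell, milk and proliferation lists span the widest ranges, 3.62, 3.24 and 2.25, and ribosomal proteins span 0.09.

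Among the 12567 genes with a biopsy above the cutoff, the median SD was 0.244 and 438 genes (3.49%) had an SD over 1, of which 103 were over 1.5 and 31 over 2. When a second probe set existed, it followed the first in part. Such probe sets numbered 122 above the cutoff, of which 91 had the same highest biopsy, 68 the same high and low biopsies and 48 an SD over 1.

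**Figure D3:**
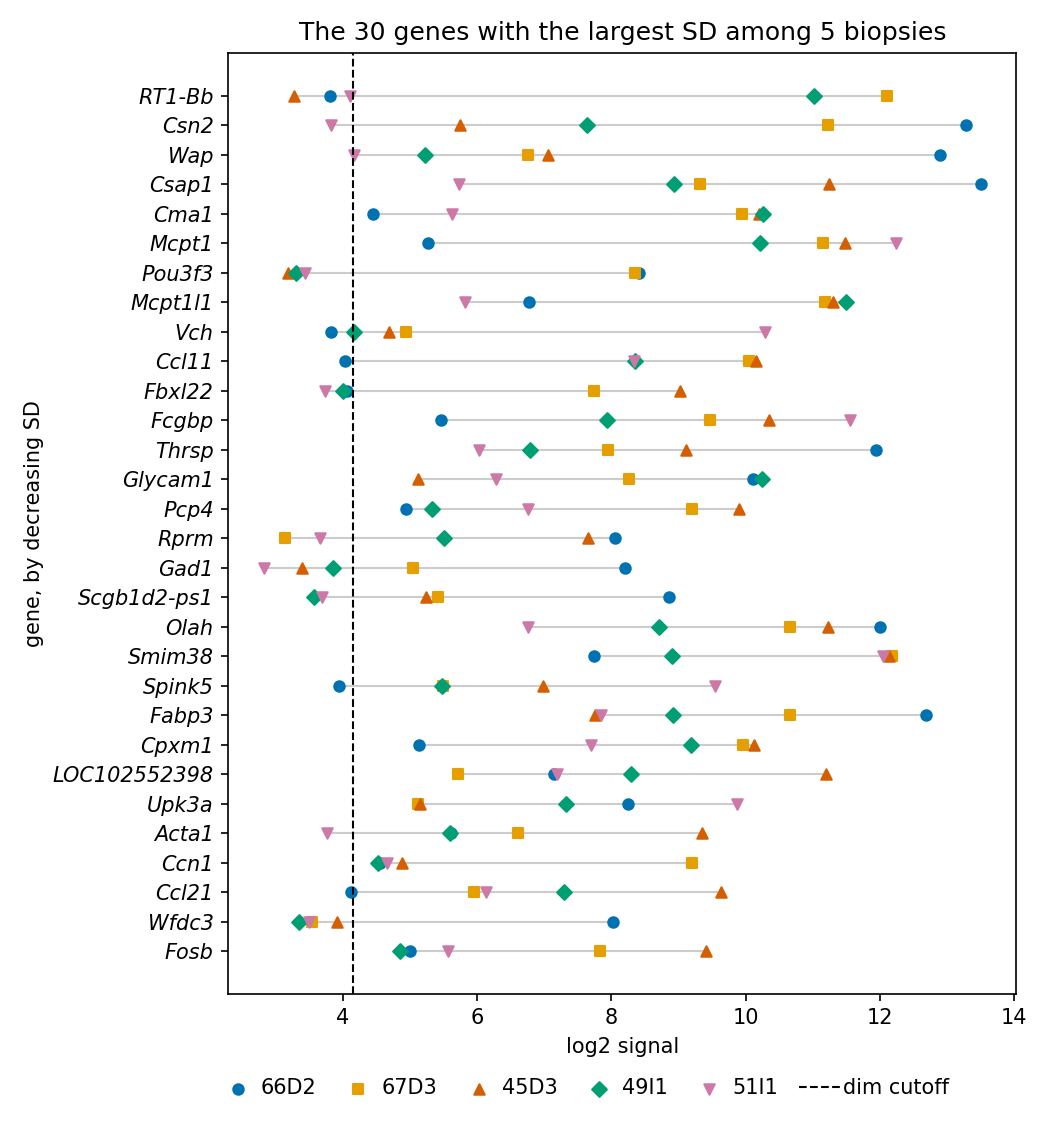
Log2 signal of the 30 genes with the largest SD, with a symbol for each of the 5 biopsies and a grey line from lowest to highest. RT1-Bb and Pou3f3 fall into 2 separate levels, and Wap, Ccn1, Vch and Wfdc3 have 1 biopsy far above the rest.

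Genes of milk proteins had the second and the third largest SD of all, 3.88 for Csn2 and 3.38 for Wap. Csn2, beta-casein, read 13.29, 11.22, 5.74, 7.64 and 3.83, and in 51I1 it lay below the cutoff. Wap, whey acidic protein, read 12.90, 6.76, 7.06, 5.23 and 4.18. Biopsy 66D2 was far above the rest for Wap, while for Csn2 67D3 was high as well. Csn1s1, an alpha casein (14.17, 12.52, 12.34, 11.94 and 9.34), and Lalba, alpha-lactalbumin, which directs lactose synthesis (14.13, 12.57, 13.00, 12.30 and 9.85), were bright in all 5 and lowest in 51I1. Csn3, kappa-casein, went another way, at 11.56, 12.93, 13.28, 12.19 and 10.75, highest in 45D3. Glycam1, a mucin of milk (10.11, 8.27, 5.12, 10.24 and 6.28), was as bright in 49I1 as in 66D2.

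Prolactin is known to act on casein genes through the factor STAT5, and the promoters of 2 caseins that held its motif are shown. Csn2 and Csn1s1 were both brightest in 66D2 and dimmest in 51I1. So were Wap and Lalba, which are not among the genes with a match named below, so that order does not go with the motif. The 250 bases before the transcription start are printed 5′ to 3′ on the coding strand, from RefSeq (build GRCr8), with matches to TTCNNNGAA, the STAT5 motif, in capitals.
Csn2 (chr14:20601574-20601823, plus strand): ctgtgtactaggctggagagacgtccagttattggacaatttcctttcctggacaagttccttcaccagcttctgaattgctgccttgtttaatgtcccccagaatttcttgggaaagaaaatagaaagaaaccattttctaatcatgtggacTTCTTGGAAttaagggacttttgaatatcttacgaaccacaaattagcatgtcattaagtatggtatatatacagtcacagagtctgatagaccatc
Csn1s1 (chr14:20638850-20639099, minus strand): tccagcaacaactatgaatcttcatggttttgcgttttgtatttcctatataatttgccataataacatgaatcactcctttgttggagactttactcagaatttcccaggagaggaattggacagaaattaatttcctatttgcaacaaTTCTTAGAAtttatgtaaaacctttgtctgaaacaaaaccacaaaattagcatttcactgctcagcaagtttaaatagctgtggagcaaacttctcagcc
The match begins 97 bases before the start in Csn2 and 100 bases before it in Csn1s1. Over both strands, 4 of the 13 milk genes with a promoter in the table held a match (30.8%), namely Csn1s1, Csn2, Glycam1 and Lao1, and 7.52% of all 27457 promoters did. Those letters were not in the windows of Wap and Csn3. A match describes the sequence only.

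As a list, milk genes had 9 of 14 members with an SD over 1, against 3.49% of all 12567 genes. In 10 of 14 the highest biopsy was 66D2, as in 26.0% of those 12567 genes. The list medians were 1.77, -0.08, -0.05, -0.48 and -1.46 relative to each gene's mean. They spanned 3.24, and 1.55 without 66D2 or 2.03 without 51I1. Members of the list that were brightest in 66D2 included Slc34a2, a phosphate transporter of secretory epithelium (9.06, 6.06, 8.36, 5.13 and 4.87), and Cel, a lipase of pancreas and milk (8.98, 5.25, 5.15, 5.16 and 4.22). Among lipogenesis genes, a separate list counted below, Olah, which ends fatty acid synthesis at the short chains of milk fat, read 12.00, 10.66, 11.23, 8.72 and 6.76. Thrsp, a regulator of mammary fat synthesis (11.95, 7.95, 9.11, 6.79 and 6.03), had 66D2 first and 45D3 second, as Slc34a2 and Elf5 did. Fabp3, a fatty acid carrier of the lactating gland, read 12.69, 10.66, 7.76, 8.92 and 7.85.

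General lipid synthesis moved less. Fasn, fatty acid synthase (12.12, 11.80, 11.05, 10.92 and 10.98), and Plin2, which coats lipid droplets (12.91, 11.30, 11.22, 10.81 and 10.83), were highest in 66D2, as were 8 of the 12 lipogenesis genes and 26.0% of all genes. The lipogenesis medians spanned 0.88, and 0.16 without 66D2. Of 14 adipocyte genes 2 had a mean above BioB, Lpl, lipoprotein lipase (11.00, 9.55, 10.04, 10.20 and 9.65), and Dgat2, which makes triglyceride (8.49 ± 0.37). Lep, leptin, was at or below the cutoff in all 5. Adipoq, adiponectin, read 3.65, 4.01, 6.64, 4.85 and 3.50 and Fabp4, the lipid carrier of adipocytes, 4.99, 6.89, 8.69, 6.40 and 5.82. Car3, a carbonic anhydrase abundant in fat (7.25, 6.69, 10.29, 8.01 and 6.64), and Cfd, adipsin (5.73, 8.39, 9.43, 8.83 and 7.14), were each above BioB in at least 1 biopsy. All 4 of these were highest in 45D3, and without that biopsy the adipocyte medians spanned 0.55 in place of 1.54.

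**Figure D4:**
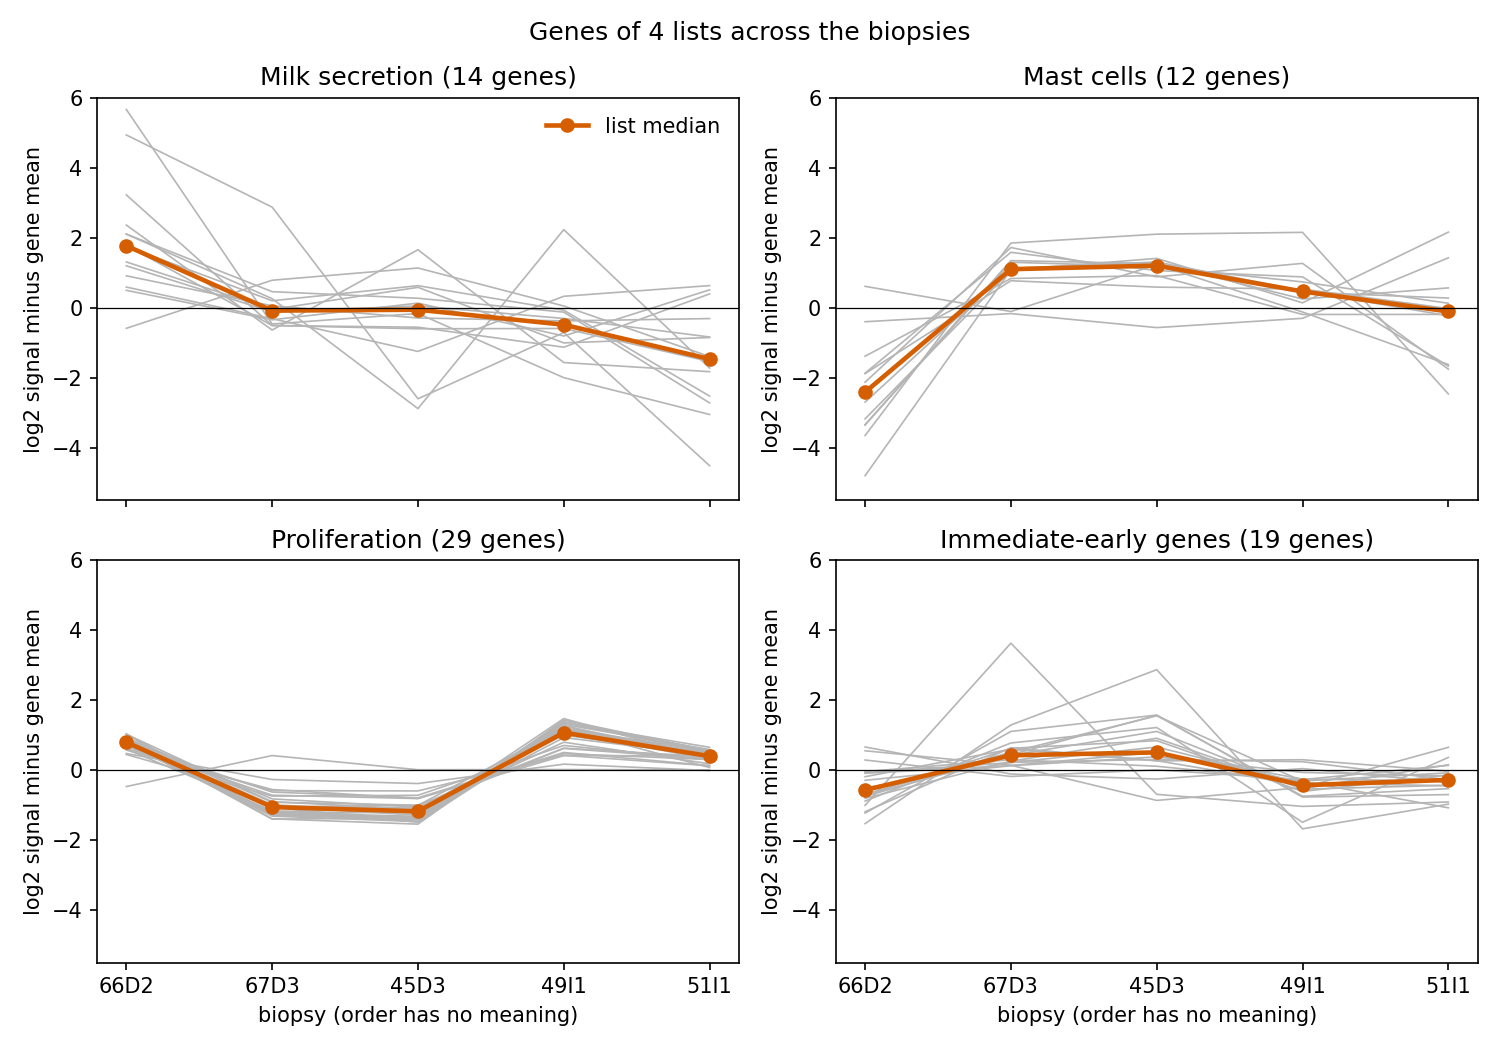
Log2 signal minus the gene's own mean for each member (grey lines) of the milk, mast cell, proliferation and immediate-early lists, with the list median in orange; lines join biopsies of the same gene and the order of biopsies has no meaning. The proliferation genes move nearly as one, low in 67D3 and 45D3, while the milk genes fan out.

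Mast cell genes gave the widest list range, with 10 of 12 members over an SD of 1, against 3.49% of the genes with a biopsy above the cutoff. Cpa3, mast cell carboxypeptidase, read 6.83, 11.48, 11.36, 10.92 and 10.31, and Fcer1a, the IgE-binding chain of the high-affinity receptor, 5.05, 9.74, 9.66, 8.84 and 8.67. Biopsy 66D2 was the lowest in both and in 10 of the 12 genes, against 30.8% of all genes. The list medians were -2.41, 1.10, 1.21, 0.47 and -0.10 and spanned 3.62, or 1.09 without 66D2.

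The granule proteases went different ways in 51I1. Mcpt10, the brightest gene of the list, read 7.18, 11.42, 11.64, 10.61 and 10.92, low in 66D2 alone, as Cpa3 was. Mcpt1, a mast cell chymase, read 5.27, 11.16, 11.49, 10.22 and 12.24 and was brightest in 51I1. Cma1, another mast cell chymase, read 4.45, 9.95, 10.21, 10.26 and 5.64. Tpsab1 (6.82, 10.67, 9.83, 10.22 and 7.19) and Tpsb2 (6.60, 10.06, 9.53, 9.35 and 6.80), both tryptases, were also low in 51I1 as well as 66D2. Mcpt1l1, a relative of Mcpt1, followed Cma1 at 6.78, 11.19, 11.30, 11.49 and 5.83. Mcpt9, a further relative outside the list, was bright in 51I1 alone (4.53, 5.48, 4.40, 5.13 and 8.98). So Cpa3, Mcpt10 and Mcpt1 were above BioB in 51I1 and Cma1, Tpsab1, Tpsb2 and Mcpt1l1 below it. Rat mast cell proteases are a family of close copies, and probe sets may read more than 1 of them. Ccl11, eotaxin, a chemokine for eosinophils, was below the cutoff in 66D2 alone (4.04, 10.05, 10.16, 8.36 and 8.34). Eosinophil genes themselves were dim, with Prg2 and Il5ra at or below the cutoff throughout and Epx at 4.22 or less.

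T cell genes were also lowest in 66D2. Cd3e, a chain of the T cell receptor complex, read 6.13, 8.69, 9.0, 8.06 and 8.28, Cd3g 5.29, 8.76, 8.93, 8.12 and 8.44, and Cd5 4.11, 6.89, 7.35, 6.36 and 7.00. The T cell medians spanned 1.90, or 0.82 without 66D2. In the list 13 of 17 were lowest in 66D2, against 30.8% of all genes, and 7 had an SD over 1, against 3.49%. Gzmb, a killing enzyme of cytotoxic cells, was separate from these, at 5.75, 5.23, 4.23, 4.82 and 7.38 with its peak in 51I1. Lck, the kinase of T cell receptor signalling, read 8.60 ± 0.63 and was the 1 member above BioB. Of 13 listed B and plasma cell genes only 7 were measured, among them RT1-Bb, a class II gene described below. By mean, 0 of the 7 lay above BioB. Ms4a1, which is CD20, and Pou2af1, a B cell coactivator, were at or below the cutoff in all 5 biopsies. Jchain, which joins antibody chains, read 5.86, 5.93, 7.74, 6.33 and 5.11, highest in 45D3.

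Macrophage genes were lowest in 66D2. Of 13 members 9 had a mean above BioB and 0 had an SD over 1, though their median SD of 0.47 lay above the 0.24 of all genes. Lyz2, lysozyme (11.57, 12.53, 12.98, 12.02 and 12.45), and C1qa, of complement C1q (10.05, 11.16, 11.00, 10.88 and 11.02), were lowest in 66D2, as were 12 of the 13 members and 30.8% of all genes. The most variable were dim, Cd163, a scavenger receptor (4.84, 6.98, 6.80, 6.74 and 7.43), and Ccr2, a chemokine receptor of monocytes (4.38, 6.75, 6.27, 6.27 and 5.47). Without 66D2 the macrophage medians spanned 0.29 in place of 1.11. Neutrophil genes were faint, with S100a9, a calcium-binding protein of neutrophils, between 5.66 and 8.0 and Fcnb, a ficolin, at 7.06 ± 0.88.

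The collagen matrix list had 19 of 22 genes above BioB, led by Col3a1 (12.26 ± 0.44) and Postn, periostin (12.19 ± 0.60). Biopsy 66D2 was lowest in 16 of the 22, against 30.8% of all genes, and Dcn, decorin, a small proteoglycan of fibroblasts, showed the widest gap, at 9.71, 11.96, 12.46, 11.76 and 12.03. The collagen medians spanned 1.10, and 0.40 without 66D2. Pdgfra, a receptor of fibroblasts (6.99, 8.13, 9.84, 9.51 and 8.27), and Tnc, tenascin C (9.22, 8.92, 7.66, 10.48 and 10.04), set 45D3 at opposite ends. Among matrix-degrading enzymes Mmp7, matrilysin, a protease of glandular epithelium, read 5.68, 10.01, 10.27, 7.88 and 10.13, and Mmp11, a protease of tumour stroma, 5.24, 7.17, 9.38, 6.98 and 6.00. The brightest of that list were Mmp14, a membrane-bound protease (11.47 ± 0.40), and Timp2, a protease inhibitor (11.11 ± 0.64). Endothelial genes were mostly below BioB, with Flt1, a VEGF receptor (8.50 ± 0.28), the 1 of 11 above it. Biopsy 66D2 was lowest in 7 of the 11, again beside 30.8% of all genes. Emcn, endomucin, read 6.08, 7.96, 8.79, 8.72 and 7.57, Tek, the angiopoietin receptor, 5.65, 7.10, 7.84, 8.0 and 5.98, and Esam, a junction protein, 8.04 ± 0.33.

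Biopsy 66D2 thus had the lowest list medians for mast cell, T cell, macrophage, matrix and endothelial genes and the highest for milk genes. Its luminal median was also the lowest (-0.18), in a list whose medians spanned 0.30. Of the 20 luminal markers 8 were lowest in 66D2, beside 30.8% of all genes.

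The gene with the largest SD of all was RT1-Bb, the beta chain of a rat MHC class II molecule, which presents peptides to T cells. It read 3.81, 12.10, 3.28, 11.03 and 4.10, bright in 67D3 and 49I1 and below the cutoff in the other 3, with a gap of 6.92 between the levels. One probe set of its partner chain RT1-Ba split the same way (7.09, 11.24, 7.45, 10.62 and 7.61). The brightest RT1-Ba probe set did not, at 10.68, 11.49, 12.19, 10.72 and 12.10, nor did RT1-Da, the alpha chain of the other class II molecule (11.85, 13.09, 12.93, 12.50 and 12.87), or Cd74, the invariant chain (11.84, 13.23, 13.15, 12.71 and 12.96). A second RT1-Bb probe set stayed between 4.54 and 5.34 in all 5. Class II genes are among the most polymorphic of vertebrate genes, and the effect of sequence differences between rats on these probe sets was not tested. Ciita, the coactivator that turns class II genes on, read 5.53, 7.60, 7.39, 6.60 and 7.52. As a list class II genes spanned 1.25, and 0.52 without 66D2, which was lowest in 8 of 9, beside 30.8% of all genes.

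Pou3f3, a transcription factor of the brain and kidney, also fell into 2 levels, at 8.41, 8.35, 3.19, 3.30 and 3.44. Across all genes, 13 had a gap of over 2.5 with at least 2 biopsies on each side, a measure chosen after the values were seen. Besides those named, they included Fbxl22, an F-box protein of muscle (4.07, 7.74, 9.02, 4.0 and 3.74), Smim38, a small membrane protein (7.75, 12.18, 12.14, 8.90 and 12.05), Slc7a7, an amino acid transporter (6.72, 10.83, 7.61, 7.62 and 10.48), and Col9a1, a collagen of cartilage (7.20, 4.41, 3.75, 7.14 and 3.82). The 2 biopsies that stand together differ from gene to gene, 66D2 with 67D3 for Pou3f3 and 67D3 with 45D3 for Fbxl22.

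Most proliferation genes varied together. Cdk1, the kinase that starts mitosis, read 10.69, 8.38, 8.26, 10.86 and 10.15. Its partners Ccnb1 (9.73, 7.41, 7.26, 10.24 and 9.36) and Ccnb2 (10.16, 8.09, 7.93, 10.76 and 10.05), the B cyclins, and Mki67, the Ki-67 antigen (10.07, 8.24, 7.98, 10.42 and 9.63), had the same split. In each of these 66D2, 49I1 and 51I1 were high and 67D3 and 45D3 low, with no overlap.

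Of 29 proliferation genes 28 had 67D3 and 45D3 as their 2 lowest biopsies, as did 23.5% of all genes, and 18 had an SD over 1, against 3.49%. Pcna, the sliding clamp of replication (12.33, 11.12, 11.12, 12.13 and 11.84), and Mcm7, of the replicative helicase (11.29, 10.55, 10.43, 10.99 and 10.81), kept the order with smaller steps. The exception was Ccnd1, cyclin D1, which acts earlier in the cycle and was lowest in 66D2 (11.62, 12.51, 12.10, 12.11 and 12.10). The list medians were 0.80, -1.05, -1.18, 1.08 and 0.40, a range of 2.25 that became 0.63 without 67D3 and 45D3. Those are also the biopsies with the widest 3′ minus 5′ differences, at 2.03 and 2.36 for hexokinase against 0.97 to 1.29 in the others, and the part of RNA length in this result was not tested.

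The promoters of Cdk1 and Ccnb2 are shown because their genes moved together and because genes of mitosis are known to carry a cell cycle element, TTTGAA, beside CCAAT boxes. They are printed as above from RefSeq (GRCr8), with both motifs in capitals on either strand, so that ATTGG and TTTGAA or its reverse TTCAAA also count as matches.
Cdk1 (chr20:19265043-19265292, plus strand): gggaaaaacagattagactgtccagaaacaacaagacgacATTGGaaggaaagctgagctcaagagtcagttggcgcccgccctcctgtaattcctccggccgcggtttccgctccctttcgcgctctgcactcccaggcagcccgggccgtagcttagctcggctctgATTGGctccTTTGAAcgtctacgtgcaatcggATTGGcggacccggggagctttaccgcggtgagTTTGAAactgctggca
Ccnb2 (chr8:79981659-79981908, minus strand): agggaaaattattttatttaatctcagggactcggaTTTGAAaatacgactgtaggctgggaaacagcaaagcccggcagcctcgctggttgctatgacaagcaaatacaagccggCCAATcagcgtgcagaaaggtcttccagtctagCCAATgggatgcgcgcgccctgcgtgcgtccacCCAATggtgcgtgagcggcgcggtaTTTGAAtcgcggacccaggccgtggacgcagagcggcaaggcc
Each of these windows holds 2 matches to TTTGAA and 3 to CCAAT, whereas that of Ccnb1 holds 2 to CCAAT and 0 to TTTGAA. Of 23 proliferation genes with a promoter, 7 held TTTGAA (30.4%) and 17 held CCAAT (73.9%), where 16.0% and 34.3% of all promoters did. No matches overlap in the windows shown, and a match is not a site of binding.

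Grouping the 438 variable genes by which biopsies lay above the midpoint of their range gave 30 patterns, and the 6 largest held 262 genes (59.8%). The largest, high in 66D2, 49I1 and 51I1, had 92 genes (21.0%), of which 28 had a mean above BioB and 17 were on the proliferation list. Led by SD it also held Gsta3l1, a glutathione transferase, Prss35, a serine protease, Cenpw, of the centromere, Shcbp1, of the dividing cell's midbody, and Armh4. Of its 76 genes with a promoter in the table, 31.6% held TTTGAA and 63.2% held CCAAT, where 16.0% and 34.3% of all promoters did. The pattern shares genes with the proliferation list, so these shares are not separate from those given above. The second pattern, low in 66D2 only, had 55 genes (12.6%), with Mcpt1, Ccl11, Cpxm1, a carboxypeptidase-like matrix protein, Cpa3 and Fcer1a in front. Sizes of the smaller patterns rest on single biopsies, since patterns that differ only in the biopsy left out become one. Without 49I1 the second pattern had 113 genes, more than the 95 of the pattern that is largest with all 5. Without 45D3 it had 74, again more, against 63. It stayed the smaller without 51I1, at 114 against 128, and without 67D3, at 79 against 83.

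The third pattern, high in 67D3, 45D3 and 49I1, had 32 genes (22 to 114 when a biopsy was left out), among them Cma1, Mcpt1l1, Efemp1, a fibulin (4.23, 8.31, 8.41, 8.88 and 6.25), Tpsab1 and Ogn, osteoglycin. The fourth, high in 66D2 alone, had 30 genes (41 to 58 without 1 of the other biopsies), with Wap, Gad1, which makes GABA (8.21, 5.05, 3.40, 3.85 and 2.83), Scgb1d2-ps1, a secretoglobin pseudogene, Wfdc3, of the whey acidic protein family (8.03, 3.55, 3.92, 3.35 and 3.50), and Ctrb1. The fifth, high in 67D3 and 45D3, had 29 genes (22 to 75) led by Fbxl22, Pcp4, a calmodulin regulator (4.94, 9.20, 9.90, 5.33 and 6.76), Acta1, Fosb and Sfrp2, a secreted Wnt modulator (6.04, 8.85, 9.37, 6.14 and 5.74). The sixth, high in 67D3, 45D3 and 51I1, had 24 genes (14 to 113) with Fcgbp, a mucus protein (5.47, 9.47, 10.34, 7.94 and 11.55), Smim38, Mmp7, Hpgd, which inactivates prostaglandins (6.72, 11.49, 9.26, 7.92 and 10.62), and Rbp7, a retinol carrier.

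**Figure D5:**
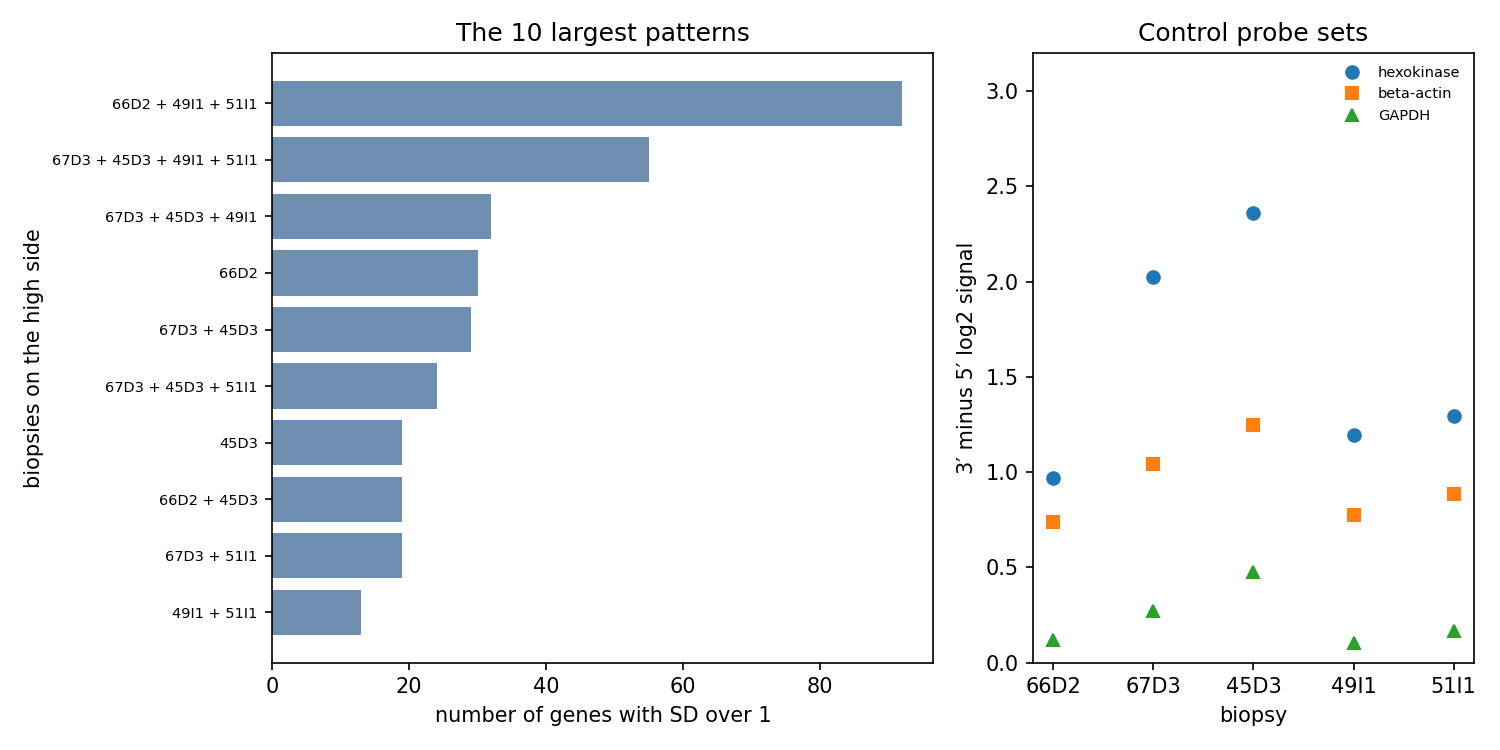
Left, number of genes with an SD over 1 in each of the 10 largest high and low patterns. Right, 3′ minus 5′ log2 signal of the hexokinase, beta-actin and GAPDH controls in each biopsy, widest in 67D3 and 45D3.

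Immediate-early genes, which respond within minutes to a stimulus or to handling of tissue, ran opposite to proliferation. Fos, a subunit of the AP-1 factor, read 10.67, 11.87, 12.91, 11.04 and 10.28, and its relative Fosb 5.01, 7.83, 9.41, 4.86 and 5.56. Dusp1, a phosphatase that shuts off MAP kinases (9.34, 11.67, 12.14, 9.79 and 9.87), and Egr1, a zinc finger factor (10.73, 11.73, 12.41, 10.76 and 10.87), were highest in 45D3 and next in 67D3. Ier3, an early survival gene, was bright with small steps (11.61 ± 0.23). In 14 of the 19 genes these were the 2 highest biopsies, as in 19.0% of all genes. The list medians spanned 1.08, and 0.15 without 67D3 and 45D3. Here too the part of the control differences given above was not tested. Ccn1, a matrix-bound signal of the same early class, was bright in 67D3 alone (4.56, 9.20, 4.88, 4.53 and 4.66).

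Hypoxia and glycolysis genes had their lowest list median in 45D3 and their highest in 66D2. Car9, a carbonic anhydrase induced in low oxygen, read 9.68, 8.29, 6.26, 7.60 and 8.75, and Egln3, an oxygen-sensing hydroxylase, 10.59, 9.07, 7.91, 8.98 and 9.96. Eno1, enolase (13.36, 12.88, 12.30, 13.04 and 13.10), and Ldha, lactate dehydrogenase (13.20, 12.78, 12.06, 12.84 and 12.92), kept 66D2 highest and 45D3 lowest with smaller steps, and Aldoa, aldolase, read 12.78 ± 0.27. Biopsy 66D2 was the highest in 13 of 16 genes, beside 26.0% of all genes. The medians spanned 1.60, or 0.66 without 45D3. The 3′ minus 5′ gap of hexokinase was widest in 45D3 (2.36) and narrowest in 66D2 (0.97), and its part in this result was not tested.

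Several stress lists had medians close together while single members did not. Heat shock medians spanned 0.27, with a median SD of 0.37 that is above the 0.24 of all genes. Hsp90ab1 (13.35 ± 0.07) and Hspe1, a mitochondrial chaperonin (12.17 ± 0.33), were the brightest, while Hspb8, a small heat shock protein (9.08 ± 0.69), peaked in 45D3 and Hspa1a, an inducible HSP70 (10.57, 11.37, 10.83, 10.98 and 11.92), in 51I1. Antioxidant medians spanned 0.34, which became 0.10 without 45D3 and 0.16 without 51I1, and their median SD was 0.33. Txn1, thioredoxin (13.01 ± 0.14), and Gpx1, a glutathione peroxidase (12.57 ± 0.36), were bright throughout. Gsta1, a glutathione transferase (9.66, 10.12, 8.20, 10.59 and 6.61), was lowest in 51I1, and Hmox1, haem oxygenase (10.07, 10.09, 7.71, 8.93 and 9.37), in 45D3.

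Genes of the unfolded protein response spanned 0.45, or 0.28 without 66D2, with Hspa5, the chaperone BiP, at 12.17 ± 0.32. Asns, asparagine synthetase (9.27, 8.12, 8.43, 8.41 and 8.98), and Trib3, a pseudokinase (7.23, 6.21, 5.76, 6.39 and 6.66), were highest in 66D2. The p53 targets spanned 0.40, or 0.26 without 67D3, and had a median SD of 0.15, below that of all genes, with Ccng1, cyclin G1, at 10.25 ± 0.15, Phlda3 at 9.85 ± 0.25, Gadd45a, a growth arrest gene, at 9.18 ± 0.38 and Sesn1, a sestrin, at 7.80 ± 0.40. The inflammation list spanned 0.48, or 0.31 without 67D3. Lcn2, named above, was its brightest member (13.15 ± 0.55), followed by Icam1, an adhesion molecule (9.49 ± 0.38). Il1rn, the interleukin-1 receptor antagonist (6.05, 7.09, 5.60, 7.13 and 8.50), and Cxcl2, a neutrophil chemokine (5.76, 6.56, 6.16, 4.94 and 4.05), lay at opposite ends in 51I1.

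Interferon-response genes spanned 0.89 and were highest in 51I1, with Isg15, a ubiquitin-like modifier, at 10.41, 9.53, 9.28, 9.0 and 10.89, and without 51I1 they spanned 0.42. Ifi27 (12.92 ± 0.14) was bright in all, and Cxcl9, a T cell chemokine (9.30, 8.76, 8.36, 10.59 and 10.19), was highest in 49I1. DMBA is activated by enzymes that the aryl hydrocarbon receptor induces. Of these Cyp1a1 read 4.01 ± 0.17, near the cutoff, while Cyp1b1 was bright at 9.39, 8.18, 8.36, 9.53 and 10.72, highest in 51I1. Tiparp read 8.41 ± 0.27 and Nqo1, a quinone reductase, 7.68 ± 0.58.

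Some genes marked a single tumour. Igf2, a fetal growth factor, read 6.06, 5.04, 5.70, 9.24 and 5.32, above BioB in 49I1 alone, though its other 3 probe sets stayed between 3.70 and 4.72 in all biopsies. Vch was bright in 51I1 alone (3.82, 4.94, 4.69, 4.17 and 10.29), and Spink5, a protease inhibitor of skin, was brightest there (3.95, 5.50, 6.99, 5.48 and 9.54). Ccl21, a chemokine of lymphoid tissue and lymph vessels (4.12, 5.96, 9.63, 7.30 and 6.13), and the unnamed locus LOC102552398 (7.14, 5.71, 11.20, 8.29 and 7.20) were highest in 45D3. Cdkn2a, the locus of the p16 and ARF inhibitors, read 5.82, 8.72, 7.87, 7.27 and 7.06, lowest in 66D2. Erbb2, the receptor HER2, read 7.90, 8.36, 8.76, 8.64 and 8.74, also lowest in 66D2, and Myc read 10.12 ± 0.23.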

How the data were processed

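RNA from 5 basal biopsies was hybridised to Affymetrix rat arrays. Per the submitters' processing notes and the design text, the authors ran RMA (Robust Multichip Average) on the scanned intensities, in a version that the sources do not give. No label names the scale, so the deposited values were taken as log2 signals from their range and like medians. RMA forces arrays to a common distribution, which hides a change in total RNA. A filter on controls and dim signals is described there, but 57 controls remained among the deposited probe sets.

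Of 31042 other probe sets, the 2016 platform annotation gave 1 symbol to 20826, several to 436 and none to 9780. No gene was named from the last 2 kinds. The brightest probe set by mean represented each of the 14217 genes, 4525 of which had several. Values were computed with Python 3.11.15 (numpy 2.4.6, pandas 2.3.3), and the pattern script was tested on simulated data. Named genes were the 30 brightest, the 30 with the largest SD, the 10 steadiest, the 3 most variable organ genes, up to 2 brightest and 2 most variable members of each of 42 gene lists, the 5 leading genes of the 6 largest patterns, and markers at or below the cutoff throughout. Ribosomal, housekeeping, respiration and other-organ genes so chosen are given mainly as counts. Other genes were named after their values were seen. The biopsies, lists and rules were chosen with earlier results of these data known, so a list's movement is not independent support. Each alternative in the closing section was run one at a time.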

Additional observations from a re-analysis of the deposited data

Results flagged for a closer look

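Among the 221 genes given by name, 20 had 1 biopsy that stood apart from the other 4 by a gap test at the 95% level (Dixon's ratio). Chance flags about 1 in 20 groups, and the same test singled out 681 of 12567 genes (5.42%) over the whole array. Of those 681 it was 66D2 that stood apart in 360 (52.9%), and of the 20 named genes in 14. Many named genes were chosen for a large SD or for leading a pattern, such as high in 66D2 alone. Their counts are therefore not independent of that choice. The differences that follow are the outlying biopsy minus the median of the other 4, in log2 signal.

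Biopsy 66D2 was low for mast cell genes Cpa3 (-4.31), Fcer1a (-4.20) and Mcpt10 (-3.99), the T cell gene Cd3g (-3.32), the fibroblast gene Dcn (-2.28), the protease inhibitor gene Timp2 (-1.42), the prolactin receptor gene Prlr (-1.14) and the macrophage genes Cd163 (-2.05) and C1qa (-0.96). It was high for Wfdc3 (4.51), the digestive enzyme genes Ctrb1 (4.23) and Cel (3.82), the lipid droplet gene Plin2 (1.88) and Epx (0.53), an eosinophil gene that lay near the dim cutoff. The lipogenesis list median was also apart in 66D2, by 0.81, alone among the 42 lists.

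In other biopsies, Vch was higher in 51I1 by 5.86, Mcpt9 there by 4.14 and Ccn1 in 67D3 by 4.59. Igf2 was higher in 49I1 by 3.74, on 1 of its 4 probe sets, and Krt5 lower there (-1.19). Hoxa5 was higher in 45D3 by 3.25.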

How the results depend on the processing

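Of 77 recomputed values of the main counts and list ranges, 67 stayed within the limits set for no change and 10 moved. The count of dim genes (2099) depended on the cutoff, at 1299 with the 75th percentile of the receptor genes and 3411 with the 40th percentile of all probe sets (5.14). Genes with an SD over 1 (438) fell to 113 when the mean had to lie above BioB, and the largest pattern (92) to 28. That pattern had 3 genes with an SD over 1.5 and 0 when the high side began 0.5 above the median, which by construction leaves at most 2 biopsies high. Leaving out each biopsy in turn, the milk range ran from 1.55 to 3.16, the mast cell range from 1.09 to 3.97 and the count of genes with an SD over 1 from 351 to 512. Without 67D3 and 45D3, a setting added after the values were seen, the proliferation range was 0.63 and 368 genes had an SD over 1. Of 382 other recomputed values 76 moved and 306 did not. The cause of these shifts was not tested. BioB is the study's own measure of sensitivity, and signals below it are less certain.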

Other observations

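A further 19 genes were high in 66D2 and 45D3 together. Csap1, a salivary secretory protein, read 13.50, 9.32, 11.24, 8.94 and 5.73 in 66D2, 67D3, 45D3, 49I1 and 51I1. Apod, apolipoprotein D (10.60, 7.25, 8.19, 7.18 and 5.52), and Foxi1, a transcription factor of ion-transporting cells (9.09, 5.99, 8.38, 5.67 and 4.55), were highest in 66D2, next in 45D3 and lowest in 51I1. Rprm, an inhibitor of the cell cycle, split the biopsies alike (8.06, 3.14, 7.66, 5.50 and 3.67), and Elf5, Thrsp and Slc34a2 belong to the same 19.

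Another 19 genes were high in 67D3 and 51I1, the pattern that also holds Greb1. P2ry14, a receptor for nucleotide sugars, read 5.70, 9.18, 7.36, 7.95 and 10.68, and Cited4, a transcriptional coactivator, 6.96, 10.83, 8.62, 7.92 and 11.17. Signalling peptides were among them, with Calca, calcitonin and its related peptide (4.57, 8.02, 5.50, 4.41 and 6.60), Btc, the EGF-family ligand betacellulin (5.18, 7.73, 6.08, 6.44 and 7.68), and Rspo3, a Wnt enhancer (6.39, 8.09, 5.90, 6.00 and 8.08). Penk, the enkephalin precursor, was bright in every biopsy but 51I1 (9.44, 12.12, 8.53, 10.01 and 6.77). Biopsy 45D3 alone was high for Hoxa5, a homeobox factor (3.69, 3.89, 6.96, 3.73 and 3.62), and Mmrn1, a protein of vessel lining (4.28, 4.85, 7.82, 5.16 and 3.84). Upk3a, a uroplakin of the bladder lining, was highest in 51I1 (8.25, 5.13, 5.15, 7.33 and 9.88). These patterns were picked after their values were seen.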
